A study of Mus musculus with 384 samples.

Results

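The 10 genes followed here form the core of the Wnt and beta-catenin pathway: Lrp6, Apc, Axin1, Axin2, Gsk3b, Ctnnb1, Tcf7l2, Tcf7, Lef1 and Ctnnbip1. They were listed by name, each matched 1 Ensembl row, and they are 10 of the 46078 gene rows in the count tables. The study sequenced RNA of single GMPs (granulocyte/macrophage progenitors, from which marrow makes neutrophils and monocytes) of C57Bl/6 mice. The disease model is Scl-tTA::TRE-BCR/ABL, in which a doxycycline-repressed activator expressed from the Scl promoter turns on the BCR-ABL fusion oncogene of chronic myeloid leukaemia. Cells came in 4 sets of 96 wells: BCR-ABL induction replicates 1, 2 and 4, and 1 set labelled control. BCR-ABL mice were bred on doxycycline at 20 mg per L of drinking water, and the drug was withdrawn at 5 weeks of age. The same dose and induction age are recorded for the wells of the control set. BCR-ABL and control mice were analysed 5 to 6 weeks after induction. The genotype of the control mice is not given in the labels, and the labels do not say whether each set is 1 animal or a pool. The gate took cells with c-Kit, CD34 and FcγR on their surface and without lineage markers or Sca-1.

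In the canonical Wnt pathway a Wnt protein binds a Frizzled receptor and its co-receptor LRP6, and the signal reaches a cytoplasmic destruction complex. That complex, built on the scaffolds Axin and APC with the kinase GSK3-beta, marks beta-catenin (the Ctnnb1 product) for degradation, and Wnt signalling halts this. Beta-catenin that escapes enters the nucleus, binds TCF and LEF proteins and activates their target genes, Axin2 among them. In blood the pathway has been studied for self-renewal of stem cells and of leukaemic progenitors. Much of its control acts on the beta-catenin protein, which RNA counts do not measure.

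RefSeq promoter windows (GRCm38.p6, from 250 bases before to 50 after a start) were at hand for 7 of the 10 members, 14 windows in all. The 250 bases before the start of a gene read in nearly every cell (Gsk3b, chr16:38088751-38089000, plus strand) and of a gene read in hardly any (Axin2, chr11:108920099-108920348, plus strand) are shown because these 2 members have 1 window each, which begins 250 bases before the annotated gene, with each CG step in capitals.
Gsk3b: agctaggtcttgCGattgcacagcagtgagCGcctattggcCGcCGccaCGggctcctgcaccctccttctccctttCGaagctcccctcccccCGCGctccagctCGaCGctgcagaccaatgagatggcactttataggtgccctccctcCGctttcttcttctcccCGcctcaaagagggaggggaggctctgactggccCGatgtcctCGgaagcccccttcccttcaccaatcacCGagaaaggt
Axin2: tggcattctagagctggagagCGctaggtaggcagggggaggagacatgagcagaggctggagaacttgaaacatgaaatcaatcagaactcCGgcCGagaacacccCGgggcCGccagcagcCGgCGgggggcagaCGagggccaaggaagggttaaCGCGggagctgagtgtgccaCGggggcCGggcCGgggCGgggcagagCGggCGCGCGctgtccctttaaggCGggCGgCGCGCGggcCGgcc
The Axin2 stretch, from the gene with almost no reads, holds 24 CG steps and the Gsk3b stretch 15, against a median of 6 over all 32851 windows. The windows of Ctnnb1, the member with the highest level, held 35 and 43, and those of Lef1, the lowest, held 5 to 14, so the number of CG steps did not follow the levels in one direction. TCF and LEF proteins are known to bind the letters CTTTG followed by AA, AT, TA or TT, which were searched on both strands of these windows. At least 1 such match stood in 16.9% of all windows and in 2 of the 14 member windows, at an alternative start of Lef1 (TACAAAG, 147 bases before it) and of Tcf7l2 (CTTTGTT, 14 bases before it). Neither sequence printed above holds a match, which says only that these letters are not there.

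In GRCm38 (mm10) coordinates, the members lie on 9 chromosomes. Ctnnb1 is at chr9:120929216-120960507 and Gsk3b at chr16:38089001-38246084, both on the plus strand. Axin1 is at chr17:26138688-26195811, Axin2 at chr11:108920349-108950783 and Apc at chr18:34220924-34322552, also on the plus strand. Lrp6 is at chr6:134446476-134566965 and Tcf7 at chr11:52252371-52283014, both on the minus strand. Tcf7l2 is at chr19:55741820-55933654, Lef1 at chr3:131110471-131224356 and Ctnnbip1 at chr4:149518236-149566437, on the plus strand. Exons of Ctnnb1, Axin2, Lef1 and Ctnnbip1 overlap another annotated gene on the opposite strand, over 782 bases in Ctnnb1 when a microRNA gene within it is counted too, and the strand setting of the counting is not given in the sources used here, so reads in those bases cannot be told apart.

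Of 384 wells, 323 were kept (76, 61 and 92 cells in BCR-ABL replicates 1, 2 and 4, and 94 in control), with a median of 1483694 reads on genes per cell and between 121.4 and 141.0 times 1e6 per set. Levels are given as CPM, reads per 1e6 reads on genes summed over a set's kept cells. Genes of the sort were read as labelled: Kit at 239 to 314 CPM, Fcgr3 at 569 to 688, and Ly6a, which encodes Sca-1, at 1.29 to 3.46. Cd34 was read in all sets but unevenly, at 146, 180 and 158 CPM in BCR-ABL replicates 1, 2 and 4 and 440 in control. The 10 neutrophil-lineage markers, granule genes such as Elane and Mpo among them, summed to 65070, 61614 and 68615 CPM in the BCR-ABL sets. In control they summed to 55807 CPM, so the sorted cells were not alike between the groups. Xist reached 5 CPM in 75 of 76, 0 of 61, 3 of 92 and 94 of 94 cells of BCR-ABL replicates 1, 2, 4 and control, so the sets differ in the sex of the mice as well as in label. Irf8, a transcription factor of the monocyte and dendritic lineages, measured 259, 421 and 62.4 CPM in the BCR-ABL sets and 990 in control, while Gfi1, a transcription factor of neutrophil development, stood at 103, 83.5, 160 and 41.5. Because control is 1 set, its label and its plate cannot be told apart. In comparisons with control, the p-values below rest on the spread among the BCR-ABL sets, as control adds none. Where classes of cells are compared within sets, with set as a block, they rest on how the class difference varies from set to set. The test of whether the BCR-ABL effect differs between classes had no such block.

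The pathway core was read at very unequal levels. Ctnnb1 and Gsk3b were found in nearly every GMP, Lrp6, Axin1 and Apc in about 40% to 72% of cells, Tcf7l2 and Ctnnbip1 in a minority, and Tcf7, Axin2 and Lef1 in a few cells per set. Scaled to exon length, the mean over the 4 sets was 39.3 CPM per kb for Ctnnb1, 8.91 for Gsk3b and 4.66 for Axin1. It was 1.65 for Lrp6, 1.36 for Ctnnbip1 and 1.15 for Apc, followed by 0.383 for Tcf7, 0.314 for Tcf7l2, 0.0256 for Axin2 and 0.00508 for Lef1. The ranges over sets overlapped among Lrp6, Ctnnbip1 and Apc, between Tcf7 and Tcf7l2, and between Axin2 and Lef1. Compared within sets, Lrp6 was above Ctnnbip1 in all 4, at 1.82, 1.48, 1.19 and 2.13 against 1.27, 1.40, 1.11 and 1.67 (BCR-ABL replicates 1, 2, 4 and control). The order of the other overlapping neighbours changed between sets. On this scale Ctnnb1 stood above Gsk3b and Gsk3b above every other member in all 4 sets.

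**Figure D1:**
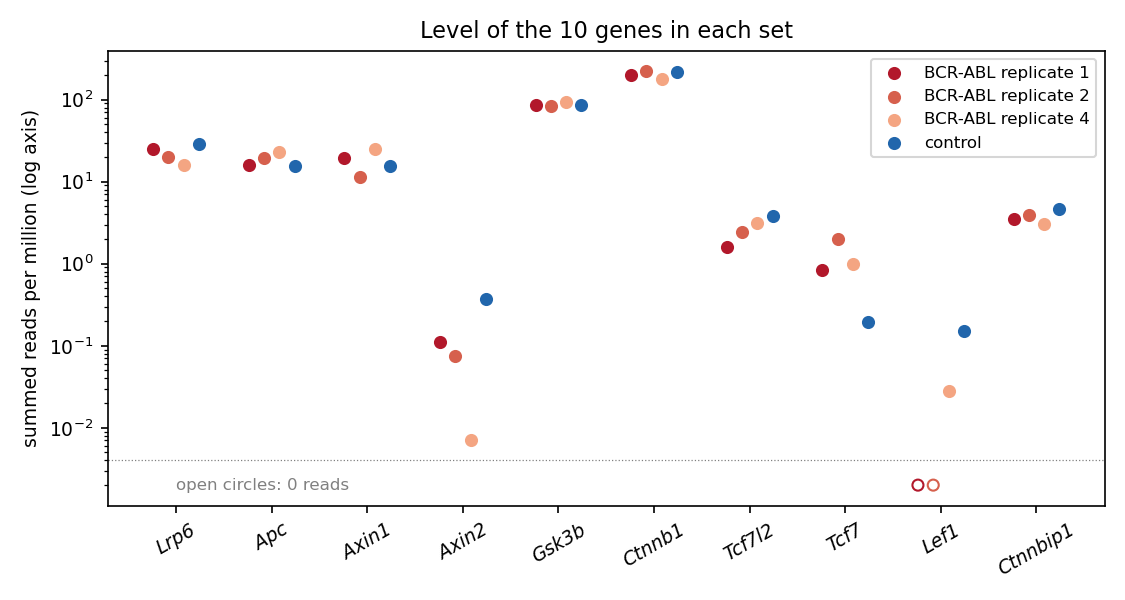
Level of each member (x axis, ordered from receptor to nuclear inhibitor) as summed CPM on a log axis, 1 point per set, with sets at 0 reads as open circles under the dotted line. Ctnnb1 lies between 180 and 221 in all sets, and Lef1 has 0 reads in BCR-ABL replicates 1 and 2.

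Lrp6, the co-receptor, stood at 24.8, 20.2 and 16.2 CPM in BCR-ABL replicates 1, 2 and 4 and at 29.2 CPM in control. The control set was thus above all BCR-ABL sets, whose mean was 20.4 ± 4.31 CPM (SD, n = 3). The fitted log2 difference, BCR-ABL over control, was -0.49 (SE 0.32, 95% interval -1.34 to 0.36, edgeR adjusted p = 0.825). The difference did not pass the test.

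Of the scaffold genes of the destruction complex, neither Apc nor Axin1 passed the test. Apc measured 15.8, 19.3 and 23.2 CPM in the BCR-ABL sets and 15.6 in control, with the lowest BCR-ABL set next to the control. Axin1 stood at 19.6, 11.4 and 25 CPM against 15.4, and the control lay inside the BCR-ABL range. Fitted log2 differences were 0.33 (SE 0.30) for Apc and 0.29 (SE 0.49) for Axin1, with edgeR adjusted p of 0.868 and 0.963. Taken as the mean of CPM over cells, so that each cell counts alike, the Axin1 difference changed sign to -0.05.

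Gsk3b, the kinase of the complex, was even across the sets. It measured 87.3, 83.2 and 93.5 CPM in the BCR-ABL sets and 86.2 in control. The log2 difference was 0.05 (SE 0.15, 95% interval -0.35 to 0.45, edgeR adjusted p = 0.985). Sets differed little beside the cells in them: the middle 50% of control cells ran from 38.7 to 125 CPM, and the highest cell held 349 CPM.

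Ctnnb1 itself measured 201, 221 and 180 CPM in the BCR-ABL sets, a mean of 201 ± 20.2 (SD, n = 3), and 215 CPM in control. In these sums the control lay between BCR-ABL replicates 1 and 2. The log2 difference was -0.08 (SE 0.18, edgeR adjusted p = 0.977), with a 95% interval from -0.56 to 0.40. A difference within those bounds was not resolved. Median cells held 137, 192, 168 and 197 CPM in BCR-ABL replicates 1, 2, 4 and control, and the highest cell, in BCR-ABL replicate 1, held 1887 CPM. Leaving out the cell with the most Ctnnb1 reads of each set gave 193, 212, 175 and 209 CPM. Taken as the mean of CPM over cells, Ctnnb1 stood at 201, 215, 168 and 225 CPM, with control above all BCR-ABL sets. The log2 difference was then -0.22.

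The nuclear partners were sparse. Tcf7l2, a TCF-family factor, measured 1.59, 2.46 and 3.18 CPM in the BCR-ABL sets and 3.80 in control, a log2 difference of -0.64 (SE 0.55). In BCR-ABL replicate 2, 53.4% of its reads came from 1 cell, without which that set stood at 1.16 CPM. Ctnnbip1, whose product binds beta-catenin and keeps it from TCF proteins, stood at 3.54, 3.90 and 3.09 CPM against 4.65, a log2 difference of -0.39 (SE 0.41). In BCR-ABL replicate 1, 1 cell gave 35.1% of the Ctnnbip1 reads, and without it the set stood at 2.32 CPM. For both genes the control set was above all BCR-ABL sets, and neither difference passed edgeR's test (adjusted p = 0.853 and 0.903).

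Tcf7, which encodes TCF1, was the member with the largest difference toward BCR-ABL. It measured 0.840, 1.99 and 1.0 CPM in the BCR-ABL sets and 0.193 in control, all BCR-ABL sets above control. The fitted log2 difference was 2.74 (SE 0.97, 95% interval 0.15 to 5.32), with an unadjusted p of 0.0423 and an edgeR adjusted p of 0.678, so it did not pass. These values rest on 515 reads in 23 cells, 8 of which held 10 or more reads at full depth. The top cell gave 68.9%, 58.5%, 90.1% and 70.4% of the Tcf7 reads of BCR-ABL replicates 1, 2, 4 and control, and without it the sets stood at 0.265, 0.832, 0.10 and 0.0583 CPM. The order of BCR-ABL above control remained, from very few cells.

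T-cell genes are the usual company of Tcf7 in blood, so they were read in the same cells. Of the 23 cells with a Tcf7 read, 1 held a read of Cd3e, 3 of Bcl11b, 3 of Il7r and 2 of Gata3. These counts are given without the share over all cells, so they do not set the Tcf7 cells apart. The highest sum of T-cell markers among them was 42.7 CPM, in a cell of BCR-ABL replicate 4 with 7 Tcf7 reads. Over whole sets the 10 T-cell markers summed to 6.82, 4.14, 3.40 and 2.71 CPM, most of it Lck, and Cd3g was at 0 in all 4 sets. The cell with the most Tcf7 reads, 141 in BCR-ABL replicate 2, held 2695 CPM of basophil and mast-cell markers and 0 CPM of T-cell markers. The next cells by Tcf7 reads, with 127 and 73 reads in BCR-ABL replicates 4 and 1, held 5.38 and 128 CPM of basophil and mast-cell markers.

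Axin2, a common readout of active Wnt signalling, was nearly unread. It had 14, 9, 1 and 52 reads in BCR-ABL replicates 1, 2, 4 and control, and 47 of the 52 control reads came from 1 cell that also held 966 Irf8 reads. Without the top cell of each set, Axin2 fell to 0.0164, 0.0415, 0 and 0.0361 CPM, close to or under the 0.0213 to 0.0247 CPM that 3 reads are worth. Lef1 had 0, 0, 4 and 21 reads, 19 of them in 1 control cell. No fold is read from either gene.

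Across the members, the control set was above all 3 BCR-ABL sets for 5 genes (Lrp6, Axin2, Tcf7l2, Lef1 and Ctnnbip1), against a background of 27.8% of the 20324 genes tested. For Axin2 and Lef1 this rests on 1 control cell each: without the top cell of each set, Axin2 in control (0.0361 CPM) was below BCR-ABL replicate 2 (0.0415), and Lef1 stood at 0.0145 in control and 0.0142 in BCR-ABL replicate 4. It was below all 3 for 2 (Apc and Tcf7), against 23.2%. All 10 members entered the test of BCR-ABL against control, and 0 passed at an edgeR adjusted p of 0.05, as did 0 of all genes (0%). At an unadjusted p of 0.05, 1 of 10 members (Tcf7) passed, against 7.18% of all genes, a share near the background. DESeq2 called 0 members, and 2.77% of all genes. The median log2 difference was -0.23 over the 10 members, -0.02 over the 8 without Axin2 and Lef1, and 0.05 over all genes.

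To compare shares of cells, each cell was thinned at random to 674952 reads, which kept 65, 54, 81 and 90 cells of BCR-ABL replicates 1, 2, 4 and control. A Ctnnb1 read was then found in 96.9%, 100%, 95.1% and 98.9% of cells, and a Gsk3b read in 96.9%, 98.1%, 96.3% and 96.7%. Lrp6 was found in 67.7%, 72.2%, 58% and 62.2%. For these genes the exact 95% binomial interval of control overlapped that of each BCR-ABL set. Axin1 was found in 50.8%, 50%, 66.7% and 44.4% of cells and Apc in 46.2%, 46.3%, 58% and 40%, with BCR-ABL replicate 4 the highest for both. The Axin1 interval of that set (55.3% to 76.8%) met that of the control at its end (34% to 55.3%).

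Tcf7l2 was found in 18.5%, 14.8%, 22.2% and 28.9% of thinned cells and Ctnnbip1 in 21.5%, 29.6%, 13.6% and 24.4%. Tcf7 was found in 4.62%, 7.41%, 3.70% and 4.44%, so the share of cells with a read did not separate the groups as the summed reads did. Axin2 was found in 3.08%, 3.70%, 0% and 4.44%, where 0 of 81 cells allows a share of up to 3.70% taken as 3 cells, and the exact 95% interval reaches 4.45%. Lef1 was found in 0%, 0%, 1.23% and 1.11%, where 0 of 65 and 0 of 54 cells allow up to 4.62% and 5.56% taken as 3 cells, and the exact intervals reach 5.52% and 6.60%. Reads without molecular identifiers are not independent molecules, so all intervals and limits cover counting error only.

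**Figure D2:**
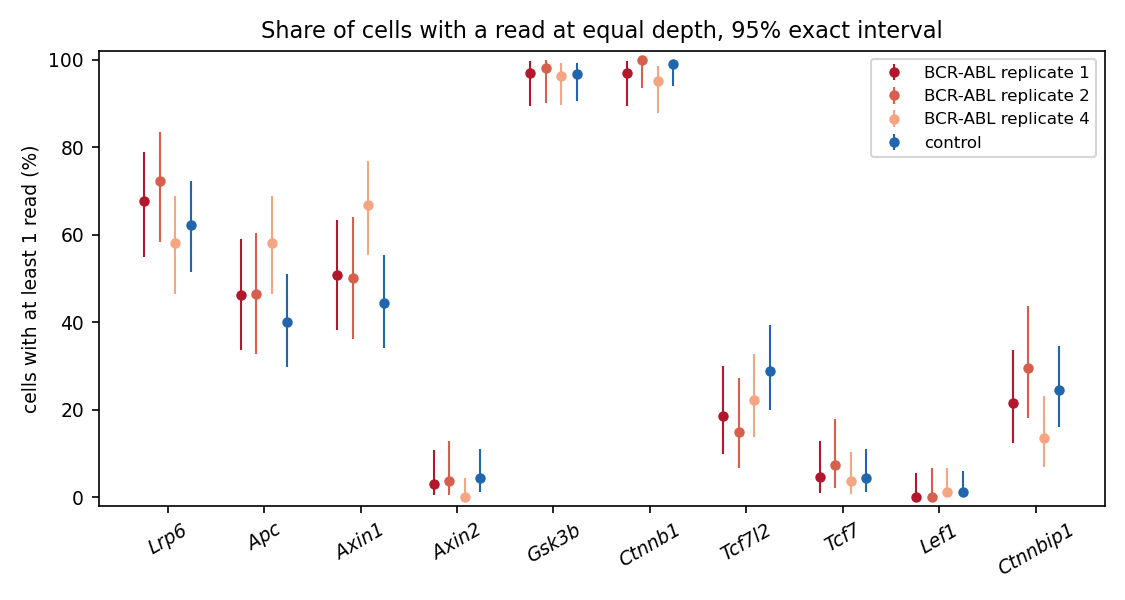
Percent of thinned cells with at least 1 read of each member, 1 point per set, with exact 95% binomial intervals for counting error. Ctnnb1 and Gsk3b lie above 95% in all sets, and Axin2, Tcf7 and Lef1 below 8%.

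Around the core, the rest of the pathway was read for 118 genes in 9 lists. None of 19 Wnt ligand genes was read in 25% of the cells of any set, and their highest level was 3.36 CPM (Wnt5b in BCR-ABL replicate 1, in 6.58% of cells). Wls, which carries Wnt proteins to the cell surface, was read in up to 100% of cells at 203, 194, 213 and 242 CPM. Among 10 Frizzled genes Fzd7 alone passed 25% of cells, at 3.71, 6.23, 6.93 and 8.40 CPM. Dvl1, Dvl2, Dvl3 and Lrp5, which relay the signal at the membrane, passed it too. Of 13 secreted or membrane inhibitors, Kremen1 alone passed it. Casein kinase 1 alpha (Csnk1a1), which primes beta-catenin for GSK3, stood at 303, 321, 307 and 311 CPM.

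Of these 118 genes, 83 were tested between BCR-ABL and control, and 0 passed. The median log2 difference was -0.07 over these genes and 0.05 over all genes. Amer1, a scaffold that binds APC, measured 19.1, 17.2 and 18.7 CPM in the BCR-ABL sets and 31.2 in control, a log2 difference of -0.75 (SE 0.21, edgeR adjusted p = 0.646). Among common target genes, Myc stood at 512, 564 and 506 CPM against 396 (log2 difference 0.43, SE 0.14). Cd44 ran the other way, at 246, 267 and 248 CPM against 343 (-0.42, SE 0.13). Id2 stood at 17.5, 12.1 and 43.6 CPM against 3.92 (2.64, SE 0.91), and DESeq2 called it, with an adjusted p of 0.00427. By edgeR the adjusted p of Myc, Cd44 and Id2 was 0.669 for each.

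Cells were next split by Irf8 within each set. Irf8-high cells had 10 or more Irf8 reads at the thinned depth: 27, 33, 14 and 77 cells of BCR-ABL replicates 1, 2, 4 and control, with 38, 21, 67 and 13 Irf8-low cells. Ctnnb1 was higher in Irf8-high cells in all 4 sets. It stood at 205 against 174 CPM in BCR-ABL replicate 1, 235 against 187 in replicate 2, 210 against 163 in replicate 4 and 237 against 191 in control. The log2 ratios were 0.24, 0.32, 0.36 and 0.31, a mean of 0.31 ± 0.05 (SD, n = 4), so the sets lay close together whatever their label.

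The median cell was higher too, at 175 against 140, 213 against 170, 214 against 163 and 204 against 172 CPM. Cells with 10 or more Ctnnb1 reads made up 96.3%, 100%, 92.9% and 94.8% of Irf8-high cells and 78.9%, 81%, 86.6% and 84.6% of Irf8-low cells. In the fit with set as a block, the log2 difference was 0.31 (SE 0.08, 95% interval 0.10 to 0.52, unadjusted p = 0.0111), and the edgeR adjusted p of 0.198 did not pass the threshold. DESeq2 gave 0.30 and an adjusted p of 0.0394, past the threshold. Without the control set the edgeR difference was 0.30.

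The background of this comparison is wide. Of 13652 genes tested, 13.5% were higher in Irf8-high cells in all 4 sets, 15.8% had an unadjusted p under 0.05, DESeq2 called 8.62%, and edgeR called 0.00732%, which is Irf8 itself. Of the 8 members tested, Ctnnb1 alone was higher in all 4 sets, 2 (Ctnnb1 and Tcf7) had an unadjusted p under 0.05, and the same 2 were called by DESeq2. Axin2 and Lef1 had too few reads to be tested. The median log2 difference was 0.13 over those 8 and 0.01 over all genes.

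**Figure D3:**
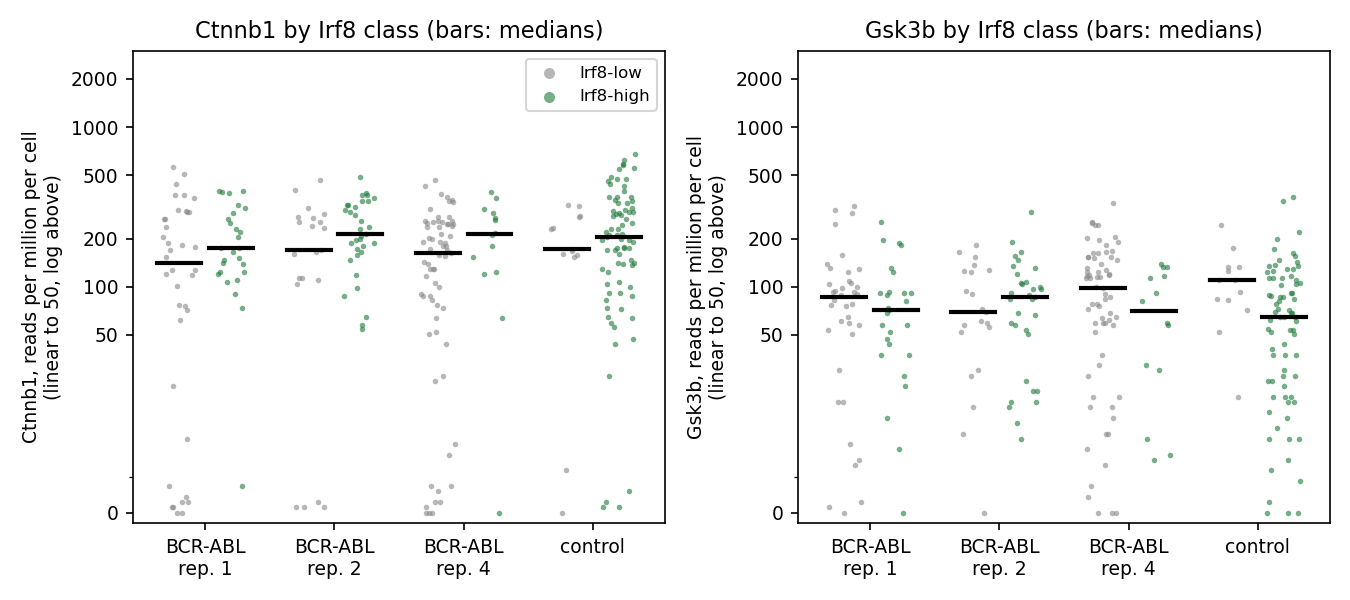
Ctnnb1 (left) and Gsk3b (right) in each thinned cell as CPM (linear to 50, log above), by set and Irf8 class, with medians as bars. The Ctnnb1 median is higher in Irf8-high cells in all 4 sets, for example 214 against 163 in BCR-ABL replicate 4, and the Gsk3b median in BCR-ABL replicate 2 alone.

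Where Irf8 is split changes the size of the Ctnnb1 difference. Summed over all sets, Ctnnb1 stood at 179 CPM in the 74 cells with 0 Irf8 reads, 164 CPM in the 65 cells with 1 to 9, 232 CPM in the 26 cells with 10 to 99 and 227 CPM in the 125 cells with 100 or more. In these sums the step lay between 1 to 9 and 10 to 99 reads, while in BCR-ABL replicate 2 the 7 cells with 0 Irf8 reads stood at 220 CPM. The bins mix the sets unevenly. BCR-ABL replicate 4 gave 50 of the 74 cells with 0 Irf8 reads, and control 72 of the 125 with 100 or more. Within sets, Ctnnb1 rose between the middle bins from 186 to 213, 171 to 208, 111 to 202 and 193 to 341 CPM (BCR-ABL replicates 1, 2, 4 and control). The 10 to 99 bin held 6, 6, 9 and 5 cells. With Irf8-high taken from 1 read, which only BCR-ABL replicates 1 and 4 had enough cells to test, the log2 difference was 0.01. With 50 reads, which left out BCR-ABL replicate 4, it was 0.24. Over the cells within a set, the Spearman correlation of Ctnnb1 with Irf8 was weak: 0.14, 0.25, -0.02 and 0.03 over 65, 54, 81 and 90 cells that share a library depth.

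**Figure D4:**
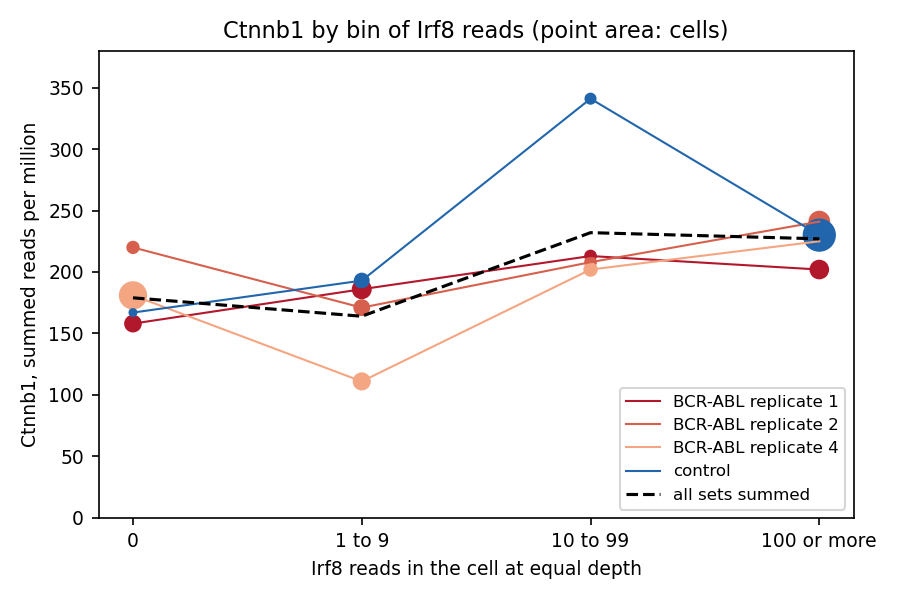
Ctnnb1 as summed CPM (y axis) by the number of Irf8 reads in a cell at equal depth (x axis), 1 line per set, point area by number of cells, dashed line for all sets summed. The control point at 341 rests on 5 cells, and the summed line steps from 164 to 232 between cells with 1 to 9 and with 10 to 99 Irf8 reads.

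Other features moved with the Irf8 split. The 10 neutrophil-lineage markers summed to 54596, 60724, 61317 and 54855 CPM in Irf8-high cells and 76181, 65333, 72166 and 56581 CPM in Irf8-low cells. The 5 basophil and mast-cell markers summed to between 29.5 and 152 CPM in Irf8-high cells and between 304 and 1754 in Irf8-low cells, and basophils and mast cells are not GMPs. The 7 monocyte markers summed to 5210, 6074, 5317 and 7484 CPM in Irf8-high cells against 4540, 4102, 5010 and 2088 in Irf8-low cells. The 4 megakaryocyte markers stood at 9.49, 7.63, 25.3 and 7.47 against 37.9, 60.4, 35.4 and 125 CPM. Dendritic-cell markers were also higher in Irf8-high cells in all 4 sets, at 48.8 to 95.5 against 32.6 to 61.8 CPM. Median genes per thinned cell were 9223, 8877, 9166 and 8398 in Irf8-high and 8372, 8347, 8759 and 8389 in Irf8-low cells. Leaving out 28 cells with 300 CPM or more of the basophil and mast-cell markers, a step chosen after these levels were seen, gave a Ctnnb1 difference of 0.30 in the 3 BCR-ABL sets, control no longer having enough Irf8-low cells. The part of the neutrophil, monocyte, dendritic and megakaryocyte markers and of the gene number in the Ctnnb1 difference was not tested.

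For Gsk3b the log2 ratios of Irf8-high over Irf8-low were -0.16, 0.11, -0.46 and -0.47, lower in 3 of 4 sets, with a fitted difference of -0.24 (SE 0.14, edgeR adjusted p = 0.462). Lrp6 ran from -0.66 to 1.55 and Tcf7l2 from -1.15 to 0.96. Axin1 ran from -0.19 to 1.0 and Apc from -1.05 to 0.35. For each of these genes the sets disagreed in sign. Ctnnbip1 ran from -0.30 to 1.23, with 0.00 in BCR-ABL replicate 1. No difference passed.

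Tcf7 had 0, 26, 0 and 3 reads in Irf8-high cells and 45, 97, 98 and 6 in Irf8-low cells of BCR-ABL replicates 1, 2, 4 and control. The Irf8-low reads came from 3, 2, 3 and 2 cells. The cell with the most Tcf7 reads in each set held 128, 2695, 5.38 and 2377 CPM of basophil and mast-cell markers. Tcf7 was lower in Irf8-high cells in 4 of 4 sets, as were 12.9% of all genes, and no other member was. The fitted log2 difference was -4.37 (SE 1.19, unadjusted p = 0.0105), with an adjusted p of 0.192 by edgeR and 0.0176 by DESeq2. The size depends on the prior count, because Irf8-high sums of 0 enter it. Of the 8 cells with 10 or more Tcf7 reads, 6 held under 10 Irf8 reads, both at full depth. Over all 290 thinned cells, 74 held 0 Irf8 reads and 65 held 1 to 9. Gfi1 was lower in Irf8-high cells in 4 of 4 sets as well, with log2 ratios of -2.16, -0.98, -1.30 and -2.83.

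Other pathway genes were split in the Irf8 comparison. Of 59 tested, 0 passed by edgeR, against 0.00732% of all genes. At an unadjusted p of 0.05, 5 were higher and 8 lower, against 15.8% of all genes. DESeq2 called 6, and 8.62% of all genes. Ppp2r1a, the scaffold subunit of protein phosphatase 2A, differed by 0.43 (SE 0.10, edgeR adjusted p = 0.148). Amer1 differed by -0.76 (SE 0.20), Hipk2, a nuclear kinase, by -1.23 (SE 0.27), and Chd8, a chromatin remodeller that binds beta-catenin, by -0.66 (SE 0.15). DESeq2 called all 4, with adjusted p of 0.00773, 0.0351, 9.97e-04 and 0.0130. Ccnd1, a common target, differed by 2.47 (SE 1.05) and Id2 by -1.0 (SE 0.33), neither past edgeR's threshold. DESeq2 called Ccnd1 (adjusted p = 0.0286) and not Id2 (adjusted p = 0.0638). Of the 9 targets tested, 3 had a positive and 6 a negative difference.

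The stem score of a cell was the mean of 24 stem and progenitor genes (log2 of thinned CPM plus 1, centred within the set and scaled), and each set was split at its median. No member is in the score, and 73 of 290 cells lay within 0.1 of the cut. Tcf7l2 was higher in stem-high cells in 4 of 4 sets, against 13.8% of all 14057 genes tested. Its reads were 54 against 23, 119 against 3, 101 against 30 and 126 against 116 in BCR-ABL replicates 1, 2, 4 and control. The log2 ratios of 1.28, 5.31, 1.79 and 0.12 spread widely, the control near 0 and BCR-ABL replicate 2 far above. Cells with a Tcf7l2 read made up 21.9%, 22.2%, 30% and 33.3% of stem-high and 15.2%, 7.41%, 14.6% and 24.4% of stem-low cells.

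The fitted Tcf7l2 difference was 1.82 (SE 0.91, 95% interval -0.40 to 4.04, edgeR adjusted p = 0.521) and did not pass. Without BCR-ABL replicate 2 it was 1.01. Basophil and mast-cell markers moved with the score in all sets, at 823, 999, 410 and 531 CPM in stem-high against 48.8, 30.9, 149 and 25.7 in stem-low cells, and so did 4 megakaryocyte markers, at 40.4 to 61.2 against 2.36 to 12.2. Dendritic-cell markers were higher in stem-high cells in all 4 sets (59.2 to 89.6 against 18.9 to 46.7 CPM). Flt3 is both a dendritic marker and a gene of the score, so part of that rise follows from the split itself. Monocyte markers were lower (3398 to 4568 against 5876 to 8842 CPM). The part of dendritic and monocyte markers in the Tcf7l2 difference was not tested. Without the 28 cells rich in basophil and mast-cell markers, 25 of them stem-high, the Tcf7l2 difference was 1.26 (edgeR adjusted p = 0.537).

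Between stem classes Ctnnb1 differed in sign among the sets. It stood at 190 against 183, 231 against 202, 191 against 152 and 217 against 243 CPM, higher in stem-high cells of the 3 BCR-ABL sets and lower in those of control. The fitted difference was 0.05 (SE 0.10, 95% interval -0.19 to 0.30, edgeR adjusted p = 0.894). Gsk3b differed by -0.12 (SE 0.10), Apc by -0.03 (SE 0.25), Axin1 by -0.08 (SE 0.19), Lrp6 by -0.17 (SE 0.29) and Ctnnbip1 by 0.38 (SE 0.49). Tcf7 had 35 against 10, 123 against 0, 5 against 93 and 9 against 0 reads, so the sets disagreed, and the fitted difference was 2.60 (SE 2.40). Of the 8 members tested, 0 passed and 0 had an unadjusted p under 0.05, against 0.0285% and 11.5% of all genes. DESeq2 called 0 of the 8, and 4.37% of all genes. Of 59 other pathway genes tested in the same split, 0 passed by edgeR. At an unadjusted p of 0.05, 8 were higher and 6 lower, against 11.5% of all genes. DESeq2 called 5, against 4.37% of all genes. Among these, Myc differed by 0.49 (SE 0.12) and Ccnd2, a cyclin of G1 phase, by 0.40 (SE 0.09). Their adjusted p was 0.00168 and 0.00372 by DESeq2, and 0.271 and 0.254 by edgeR. Ppp2r1a differed by 0.30 (SE 0.08) and Cul1 by 0.33 (SE 0.09), with DESeq2 adjusted p of 0.0310 and 0.0496.

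**Figure D5:**
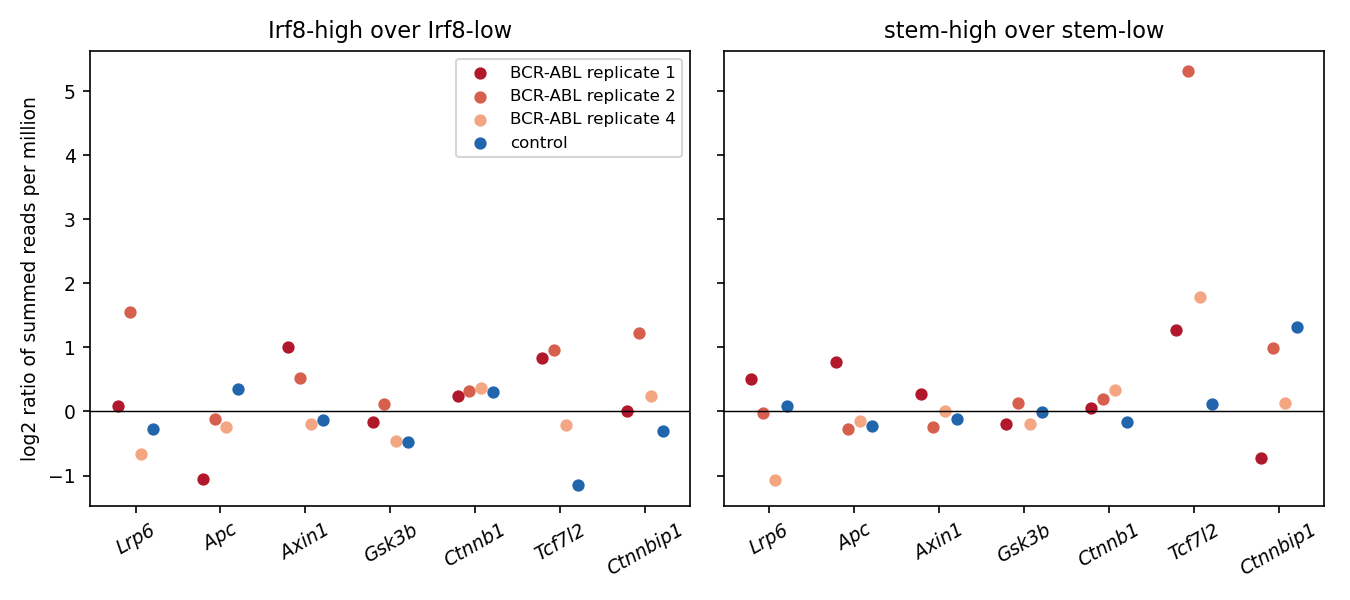
Log2 ratio of summed CPM in Irf8-high over Irf8-low cells (left) and in stem-high over stem-low cells (right), 1 point per set, for the 7 members with reads in both classes of all sets. On the left Ctnnb1 lies between 0.24 and 0.36 while other members straddle 0, and on the right Tcf7l2 runs from 0.12 to 5.31.

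Since the share of Irf8-high cells differs between sets, BCR-ABL was also compared with control within each class. Irf8 itself still differed among Irf8-high cells, at 545, 581 and 206 CPM in BCR-ABL replicates 1, 2 and 4 against 1136 in control. Irf8-low cells were not alike either. Their basophil and mast-cell markers summed to 673, 1219 and 304 CPM against 1754 in control, where 5 of 13 cells held 300 CPM or more. Their monocyte markers summed to 4540, 4102 and 5010 CPM against 2088. Among Irf8-high cells Ctnnb1 stood at 205, 235 and 210 CPM against 237 in control, a log2 difference of -0.12 (SE 0.17). In Irf8-low cells it stood at 174, 187 and 163 CPM against 191, a difference of -0.06 (SE 0.18). The control was above all BCR-ABL sets in both classes by less than the fit resolves. Gsk3b differed by 0.07 (SE 0.22) and by -0.17 (SE 0.21). In each class 0 members passed by edgeR, as did 0% of all genes, and 0 were called by DESeq2, which called 0.733% of all genes in Irf8-high and 6.94% in Irf8-low cells.

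In Irf8-low cells Tcf7l2 stood at 1.33, 2.12 and 2.45 CPM against 7.52 in control, all BCR-ABL sets below it. The log2 difference was -1.87 (SE 0.71, 95% interval -3.70 to -0.04), with an unadjusted p of 0.0464, which 15.4% of all genes had in that class, and an edgeR adjusted p of 0.318. It rests on 34, 30, 111 and 66 reads, the control's from 6 of 13 cells, and with the Irf8 cut at 50 reads it was -0.93. The part of the basophil, mast-cell and monocyte markers, which also differed between these Irf8-low cells, was not tested. In Irf8-high cells Tcf7l2 stood at 2.36, 4.13 and 2.12 against 3.39 CPM. The difference between the classes was fitted without set as a block, so both classes of a set entered as independent sums. The test of the difference between the classes gave 1.65 (SE 1.09, edgeR adjusted p = 0.689) for Tcf7l2, which turned to -0.32 with the Irf8 cut at 50 reads, and -0.06 (SE 0.23) for Ctnnb1. It called 0 of 9 members tested and 0.0059% of all genes.

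The genes whose level over cells was most like that of Ctnnb1 were sought among 7281 genes read in at least 50% of the 290 thinned cells. Likeness was the Spearman correlation of ranks centred within sets. Ddx39, an RNA helicase, stood first at 0.32, followed by Aldh18a1, an enzyme of proline synthesis, at 0.27, Plaa at 0.27, Xpo1, the nuclear exportin, at 0.26 and Ywhae, a 14-3-3 protein, at 0.26. The median over all genes was 0.04. Within the pathway the values were -0.03 for Gsk3b, -0.06 for Lrp6 and 0.07 for Axin1. The leading genes were picked as the highest of all, so lying below them does not set a gene apart. Over BCR-ABL replicates 1, 2, 4 and control the correlation was 0.43, 0.35, 0.38 and 0.16 for Ddx39. It was 0.48, 0.10, 0.35 and 0.11 for Ywhae, and steadier for Xpo1, at 0.25, 0.22, 0.21 and 0.32.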

How the data were processed

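RNA of single sorted GMPs was amplified by SMART-seq2 and turned into Nextera XT libraries (per the labels' protocols). Values deposited by the authors are raw counts of reads per Ensembl gene and well, made with GSNAP and HTSeq 0.5.3p3 on mm10, per the submitters' processing notes. Annotation and strand setting: not given in the sources used here. Of all reads 44.9% lay on genes. Spike-ins (0.265%) and summary rows (54.8%, ambiguous and unaligned reads among them) stayed out of library sizes and tests. Symbols came from GENCODE vM21, which matched 45143 gene identifiers and left 935 without one.

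A well was kept from 50000 gene reads and 1000 genes on, 323 of 384. For classes and shares, cells were thinned to 674952 reads, the 10th percentile, leaving out 33. No doublet caller was run on these plate-sorted wells, and no wells held identical counts. Counts were summed per set, or per set and class with at least 10 cells each, since cells are not replicates.

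All genes were tested with edgeR 4.0.16 (quasi-likelihood, TMM, filterByExpr, Benjamini-Hochberg, threshold 0.05), with set as a block between classes. The fit of the interaction of condition and class had no block. Against control, 3 sums met 1, with 2 residual degrees of freedom, and the lone control is assumed to vary like the BCR-ABL sets. DESeq2 1.42.0, RLE scaling, no filter, other cuts and leaving out sets were alternatives. On simulated counts with a spread between sets smaller than that of these data, the fit against control recovered few of the changed genes, so the lack of calls there does not show that genes were alike. The members, the lists, and the rule that named other genes (up to 3 a list with the smallest p in the condition test, up to 2 in the class tests, read in 25% of a set's cells) were chosen with earlier results of these data known.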

Additional observations from a re-analysis of the deposited data

Results flagged for a closer look

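Apc was lower in Irf8-high than in Irf8-low cells in the 3 BCR-ABL sets (log2 ratios of -1.05, -0.12 and -0.25) and higher in the control set (0.35), which is what drew attention to it. The interaction of condition and Irf8 class was -0.79 (SE 0.72, edgeR adjusted p = 0.796) and did not pass. Ctnnb1 was higher in stem-high than in stem-low cells in the 3 BCR-ABL sets (0.05, 0.19 and 0.33) and lower in the control set (-0.16), and this difference between the groups was not tested. With 1 control set, either pattern rests on the sign of 1 value. The interaction fit did not pair the classes of a set.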

How the results depend on the processing

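The number of members passing the test was 0 in each comparison under each alternative, except in the Irf8 comparison by DESeq2, where it was 2 (Ctnnb1 at 0.30 and Tcf7 at -4.79). Leaving out each BCR-ABL replicate in turn gave 0 in each. Of 297 alternative values, 284 were counted as unchanged, 6 changed sign and 4 shares moved. By DESeq2 only, 2 genes and their count changed side of the threshold. The cause of these changes was not tested. Values counted as unchanged include shares and correlations, which have no threshold, and could differ in size. With Irf8-high from 1 read, the Ctnnb1 difference between Irf8 classes was 0.01, against 0.31 in the main fit. Without BCR-ABL replicate 4, the Ctnnb1 difference between BCR-ABL and control was 0.00, against -0.08. On thinned cells that difference was -0.25, and as a mean over cells -0.22. The sign changes were Axin1 between BCR-ABL and control as a mean over cells (-0.05), Apc between Irf8 classes without BCR-ABL replicate 1 (leave-one-out range -0.31 to 0.01), Axin1 with Irf8-high from 50 reads (-0.18), Ctnnb1 between stem classes without BCR-ABL replicate 4 (range -0.03 to 0.07) and between the ends of the score (-0.11), and the Tcf7l2 interaction from 50 reads (-0.32). Counted from 10 reads, Ctnnb1 was found in 86.2%, 92.6%, 87.7% and 93.3% of cells. Without the replicate block the Irf8 difference of Ctnnb1 was 0.31 and of Tcf7 -3.16, and the Tcf7l2 stem difference was 1.42. No paired analysis of BCR-ABL against control was possible because the control has 1 replicate. The stricter well filter was not run within Irf8 classes, since all thinned cells already meet it. Axin2 and Lef1 rest on 76 and 25 reads in 16 and 6 cells and Tcf7 on 515 reads in 23 cells, too few for a level per set to be read firmly.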
